A study of Homo sapiens with 12 samples.

Results

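The subject is a set of 10 genes of the SOX family of transcription factors, SOX2, SOX4, SOX5, SOX6, SOX8, SOX9, SOX10, SOX11, SOX12 and SOX13. They were chosen by name and found by gene symbol, all 10 of them, among the 58174 genes of each deposited table. They were followed through 12 RNA-seq libraries of LN229 and U251, 2 established cell lines from human glioblastoma. Cells of each line were reverse transfected with XRN2 siRNA (siXRN2), with a control siRNA (siNT_OTP) or with no siRNA (mock), and RNA was taken after 72 hours, giving 6 groups of 2 libraries. LN229 was kept in DMEM with less serum than U251, which was kept in EMEM, so line and medium cannot be told apart. Every group except mock received an siRNA, its sequence is not given in the sources used here, and no genotype or allele is labelled beyond the names of the lines.

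SOX proteins bind DNA through an HMG box, a domain that bends the double helix, and they usually act with partner factors. They fall into groups by sequence. SOX2 (group B1) is known for keeping neural stem cells and glioma stem-like cells undifferentiated, SOX8, SOX9 and SOX10 (group E) for glial, neural crest and cartilage fates, SOX5, SOX6 and SOX13 (group D) for work beside the E group, and SOX4, SOX11 and SOX12 (group C) for early neuronal genes. XRN2 is a nuclear exoribonuclease known for degrading the RNA that follows a cleaved poly(A) site.

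The genes are kept apart by more than their symbols, but they share the code for the HMG box. The 30 coding bases of each gene that best match one stretch of SOX2's box are shown to illustrate how alike the members are there. The width of 30 was a chosen setting, and some pairs share longer runs. The sequences are those of GENCODE release 29 transcripts, read 5′ to 3′, and capitals mark the 24 positions that are equal in all 10 genes.
SOX2: AAGcGgCCcATGAAtGCcTTCATGGTgTGG
SOX8: AAGcGgCCcATGAAcGCaTTCATGGTgTGG
SOX9: AAGcGgCCcATGAAcGCcTTCATGGTgTGG
SOX10: AAGcGgCCcATGAAcGCcTTCATGGTgTGG
SOX5: AAGcGtCCaATGAAtGCcTTCATGGTgTGG
SOX6: AAGcGaCCaATGAAtGCaTTCATGGTtTGG
SOX13: AAGaGgCCcATGAAcGCcTTCATGGTgTGG
SOX4: AAGcGaCCcATGAAcGCcTTCATGGTgTGG
SOX11: AAGcGgCCgATGAAcGCgTTCATGGTaTGG
SOX12: AAGaGgCCgATGAAcGCaTTCATGGTgTGG

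SOX9 and SOX10 were identical over these 30 bases. Over all transcripts of each gene, untranslated parts included, the longest run shared by SOX9 and SOX10 was 45 bases, the longest of all 45 pairs. It was 37 bases between SOX8 and SOX9, 35 between SOX11 and SOX12 and 33 between SOX4 and SOX12, and in 40 of the 45 pairs it was under 30. The counts of SOX9 and SOX10 did not follow each other. In U251 the 6 libraries held 11391 SOX9 exon reads beside 3 SOX10 exon reads, and in LN229 they held 28327 SOX10 reads beside 135 SOX9 reads.

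The libraries held 4846768 to 7469052 exon reads each. Levels are given as CPM (counts-per-million of exon reads, scaled by the trimmed mean of M-values), and 3 reads, the limit that a count of 0 allows, came to 0.381 to 0.605 CPM; such limits and the intervals given with ratios cover counting error only. XRN2 was at 33.5 and 25.6 CPM with XRN2 siRNA, 202 and 243 CPM with control siRNA and 229 and 235 CPM in mock in LN229. In U251 XRN2 was at 31.1 and 26.2 CPM with XRN2 siRNA, 144 and 134 CPM with control siRNA and 138 and 143 CPM in mock. The replicates of LN229 control siRNA and of U251 mock differed most. The chi-square statistic per gene was 19.4 and 27.3 in those pairs and 1.73 to 7.51 in the other pairs. It compares the 2 replicates of a group and cannot tell which of them is odd. LN229 control siRNA replicate 1 and U251 mock replicate 2 are called the libraries that stood apart, a choice made after seeing the data. Results whose call, direction or size rests on these libraries are given with and without them. Nothing in the labels says that replicates were cultured separately, so a p-value refers to the scatter between these particular libraries, and that scatter may be technical.

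The lines differed in glial markers. Of 8 astroglial markers (GFAP, VIM, NES, S100B, AQP4, SLC1A3, ALDH1L1 and CD44), AQP4 and ALDH1L1 were at or near 0 in both lines. GFAP, the astrocyte filament protein, was at 1.41 to 4.31 CPM in LN229 controls and at 2351 to 6428 CPM in U251 controls, and SLC1A3, a glutamate transporter of astrocytes, at 0 to 0.807 CPM in LN229 controls and 93.7 to 108 CPM in U251 controls. VIM and CD44, a filament protein and a cell-surface receptor of many mesenchymal and glial cells, were lower in LN229 as well, whereas S100B, a calcium-binding protein of glia, was at 294 to 569 CPM in LN229 controls and 14.9 to 22.0 CPM in U251 controls. Of the 6 markers tested, 4 passed as lower and 2 (S100B and NES) as higher in LN229, beside 32.1% lower and 34.9% higher of all tested genes. SLC1A3 passed the low-count filter through U251 alone, so its side was all but fixed in advance. NES did not pass in control siRNA libraries alone (edgeR adjusted p = 0.142). The summed level of the 8 was 4771 to 6200 CPM in LN229 controls and 9484 to 17267 CPM in U251 controls. Of 4 blood markers, PTPRC, AIF1 and HBB stayed at or near 0 in all 12 libraries, and CD68, a lysosomal protein of macrophages and other cells, was at 6.98 to 9.68 CPM in LN229 controls and 47.4 to 63.8 CPM in U251 controls. Of 4 epithelial markers, EPCAM, CDH1 and KRT5 stayed at or near 0, and KRT8, a keratin, was at 21.6 to 34.3 CPM in LN229 controls and 4.94 to 8.41 CPM in U251 controls.

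SOX10 was the leading SOX gene of LN229 and was all but missing from U251. SOX10, which drives oligodendrocyte and neural crest fates (ENSG00000100146, chromosome 22, 37970686 to 37987422, minus strand, in GRCh38 as are all positions here), was at 774 and 710.5 CPM in LN229 mock and at 759 and 648 CPM in LN229 control siRNA. In U251 it had 1 read in the 4 control libraries together, in control siRNA replicate 1. The summed reads were 18050 in LN229 controls and 1 in U251 controls, a ratio of 16868 (95% counting interval 3027 to 666287). Every LN229 library lay above every U251 library.

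**Figure D1:**
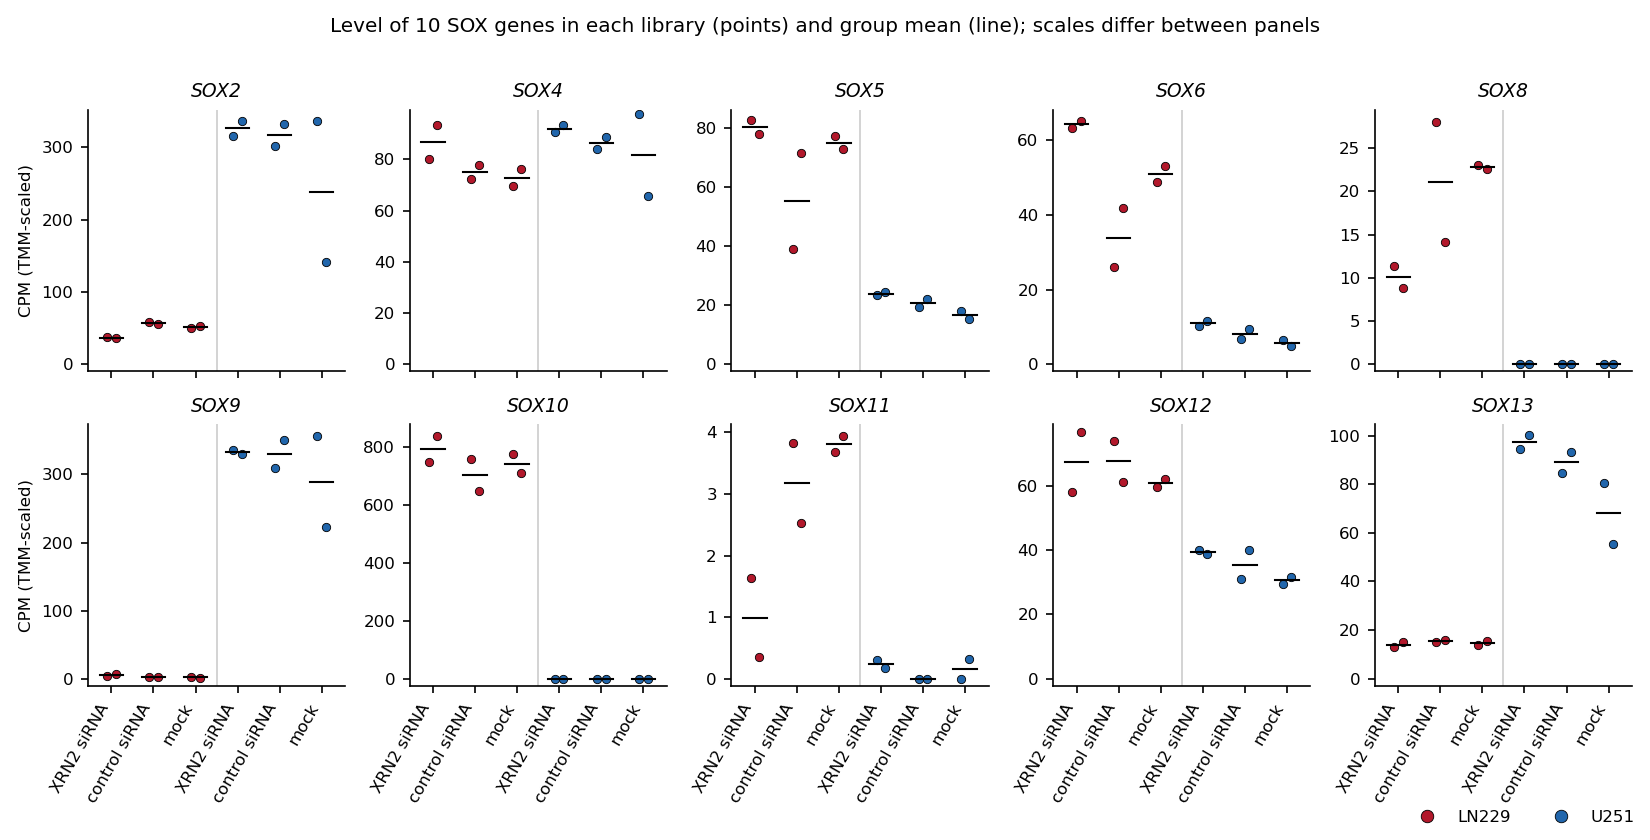
Level of each SOX gene in CPM (vertical axis, its own scale in each panel) in the 12 libraries, XRN2 siRNA, control siRNA and mock from left to right in LN229 (red) and then in U251 (blue); points are libraries and bars are group means of 2. SOX10, SOX8 and SOX11 pass 1 CPM in LN229 alone, SOX9, SOX2 and SOX13 are lower in LN229, and the SOX4 points of the lines overlap.

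SOX8, a relative of SOX10 with roles in glia and testis (ENSG00000005513, chromosome 16, 981808 to 986979, plus strand), was also higher in LN229. It was at 23.0 and 22.6 CPM in LN229 mock and at 28.04 and 14.1 CPM in LN229 control siRNA, with 0 reads in each of the 6 U251 libraries. Against a floor of 3 reads per library, SOX8 was at least 42.6-fold higher in LN229 controls. SOX9, the third member of group E, which directs cartilage formation and astrocyte fate (ENSG00000125398, chromosome 17, 72121020 to 72126420, plus strand), was lower in LN229. It was at 3.20 and 1.78 CPM in LN229 mock and 3.03 and 3.03 CPM in LN229 control siRNA, against 356 and 223 CPM in U251 mock and 309 and 351 CPM in U251 control siRNA. Its log2 fold change in LN229 over U251 was −6.82 (SE 0.23, edgeR adjusted p = 4.26e-11), and by summed reads, 67 in LN229 against 7180 in U251, U251 was 115-fold higher (95% counting interval 90.2 to 148). So the 3 E-group genes were split between the lines. SOX10 and SOX8 passed the low-count filter through LN229 alone, so their side was all but fixed in advance.

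Of the 10 members, 9 passed edgeR's quasi-likelihood test between the lines at an adjusted p under 0.05, 6 higher in LN229 and 3 lower. Between these lines 67% of all 14232 tested genes passed, 34.9% higher and 32.1% lower in LN229, so a passing SOX gene is near the background and the sizes say more than the count. The median log2 fold change of all tested genes was 0.03. How many of all tested genes had no overlap of libraries between the lines was not counted. SOX10, SOX8 and SOX11 passed the low-count filter through their LN229 libraries alone, and they add nothing to that count. Of the 1301 genes let in by LN229 alone, 82.9% passed as higher in LN229 and 0.0769% as lower. Of the 748 genes let in by U251 alone, 88.5% passed as lower in LN229 and 0% as higher. Of the other 7 members, which reached the filter in both lines, 3 passed as higher and 3 as lower, beside 32.1% higher and 32.1% lower of all 12139 genes that reached it in both lines. In bulk libraries, fewer cells that express a gene and less of its RNA in each cell cannot be told apart.

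SOX2 was present in both lines and lower in LN229. SOX2 (ENSG00000181449, chromosome 3, 181711924 to 181714436, plus strand) was at 50.6 and 53.2 CPM in LN229 mock and 58.9 and 55.2 CPM in LN229 control siRNA, against 336 and 141 CPM in U251 mock and 302 and 333 CPM in U251 control siRNA. The lowest U251 value, 141 CPM, came from mock replicate 2 and still lay above all of LN229. The log2 fold change was −2.34 (SE 0.21, edgeR adjusted p = 8.53e-07), and −2.62 without the 2 libraries that stood apart. SOX21, a group B2 gene known to oppose SOX2, is no member of the 10 but was lower in LN229 too: it had 0 reads in LN229 and was at 115 to 196 CPM in U251 controls, at least 333-fold higher in U251. SOX3, close in sequence to SOX2, was at 0 reads in LN229 and averaged 2.12 CPM in U251 controls, at least 4.30-fold higher in U251. SOX21 and SOX3 passed the low-count filter through U251 alone, so their side was all but fixed in advance.

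The D group was split as well. SOX5 (ENSG00000134532, chromosome 12, 23529500 to 23951032, minus strand), which has roles in glia and cartilage, was at 77.4 and 72.8 CPM in LN229 mock and 39.1 and 71.7 CPM in LN229 control siRNA, against 18.0 and 15.3 CPM in U251 mock and 19.4 and 22.2 CPM in U251 control siRNA. Its log2 fold change was 1.80 (SE 0.16). SOX6 (ENSG00000110693, chromosome 11, 15966449 to 16739591, minus strand), the closest relative of SOX5 in function, was at 48.8 and 53.2 CPM in LN229 mock and 26.0 and 41.8 CPM in LN229 control siRNA, against 6.50 and 5.00 CPM in U251 mock and 6.69 and 9.34 CPM in U251 control siRNA. Its log2 fold change was 2.62 (SE 0.17, edgeR adjusted p = 2.44e-08). In both genes the lowest LN229 value was that of control siRNA replicate 1, and it lay above every U251 control.

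SOX13 (ENSG00000143842, chromosome 1, 204073115 to 204127743, plus strand), the third D-group gene and a T-cell and neural factor, ran against SOX5 and SOX6. It was at 13.8 and 15.4 CPM in LN229 mock and 14.9 and 15.8 CPM in LN229 control siRNA, against 80.6 and 55.5 CPM in U251 mock and 84.7 and 93.4 CPM in U251 control siRNA. The log2 fold change was −2.37 (SE 0.13, edgeR adjusted p = 4.04e-09), with no overlap between the lines.

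In the C group SOX4 and SOX12 differed between the lines by less than 1 on the log2 scale, and SOX11 by more. SOX4 (ENSG00000124766, chromosome 6, 21592768 to 21598619, plus strand), widely expressed in embryonic and tumour cells, was at 69.4 and 76.3 CPM in LN229 mock and 72.4 and 77.6 CPM in LN229 control siRNA, against 97.8 and 65.7 CPM in U251 mock and 84.1 and 88.8 CPM in U251 control siRNA. U251 mock replicate 2 was the lowest of the 8 and the other 3 U251 libraries were above all LN229 controls. The log2 fold change of SOX4 was −0.18 (95% interval −0.48 to 0.12, edgeR adjusted p = 0.202). Without U251 mock replicate 2 it was −0.32 and passed (adjusted p = 0.0158). Without both libraries that stood apart it was −0.30 (adjusted p = 0.00747).

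SOX12 (ENSG00000177732, chromosome 20, 325595 to 330224, plus strand), the weakest activator of its group, was at 59.7 and 62.2 CPM in LN229 mock and 74.0 and 61.5 CPM in LN229 control siRNA, against 29.6 and 31.8 CPM in U251 mock and 31.2 and 40.0 CPM in U251 control siRNA. Its log2 fold change was 0.96 (SE 0.12), with no overlap. SOX11 (ENSG00000176887, chromosome 2, 5692667 to 5701385, plus strand), a gene of newborn neurons, was low throughout, at 3.68 and 3.93 CPM in LN229 mock and 3.83 and 2.53 CPM in LN229 control siRNA, with 2 reads in all 4 U251 controls. By summed reads, 88 in LN229 controls and 2 in U251 controls, it was 41.1-fold higher in LN229 (95% counting interval 11.05 to 345). Both U251 reads were in mock replicate 2, and without that library SOX11 was at least 6.64-fold higher in LN229, against a floor of 3 reads per library.

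Levels of different genes were compared per length, as the deposited TPM (transcripts-per-million). In LN229 controls the order was SOX10, SOX2, SOX12, SOX4, SOX5, SOX8, SOX6, SOX13, SOX9 and SOX11, from 787 ± 69.1 TPM for SOX10 to 1.61 ± 0.299 TPM for SOX11 (SD, n = 4 libraries). SOX10 alone made up 74.3% ± 1.62 of the summed TPM of the 19 SOX genes examined, and SOX2, at 87.4 ± 3.47 TPM, 8.30% ± 0.750. SOX2 did not overlap with its neighbours, whereas SOX12 (54.2 to 57.6 TPM) and SOX4 (44.6 to 55.3 TPM), SOX5 (15.9 to 36.6 TPM) and SOX8 (13.3 to 22.8 TPM), and SOX6 (4.78 to 11.4 TPM) and SOX13 (7.25 to 8.90 TPM) were neighbours that overlapped.

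In U251 controls the order was SOX2, SOX9, SOX4, SOX13, SOX12, SOX5 and SOX6, from 402 ± 131 TPM for SOX2 to 1.27 ± 0.316 TPM for SOX6 (SD, n = 4 libraries), with SOX10, SOX11 and SOX8 at or near 0. SOX2 took 37.9% ± 4.94, SOX9 27.9% ± 1.99 and SOX21 20.9% ± 1.40 of the summed SOX TPM. SOX2 (208 to 485 TPM) overlapped with SOX9 (210.3 to 328 TPM), which was the higher of the pair in mock replicate 2, SOX4 (41.6 to 60.5 TPM) overlapped with SOX13 (27.7 to 45.1 TPM), and SOX13 overlapped with SOX12 (23.2 to 30.9 TPM). LN229 thus had 1 dominant SOX transcript, and in U251 the lead was shared by SOX2, SOX9 and SOX21.

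**Figure D2:**
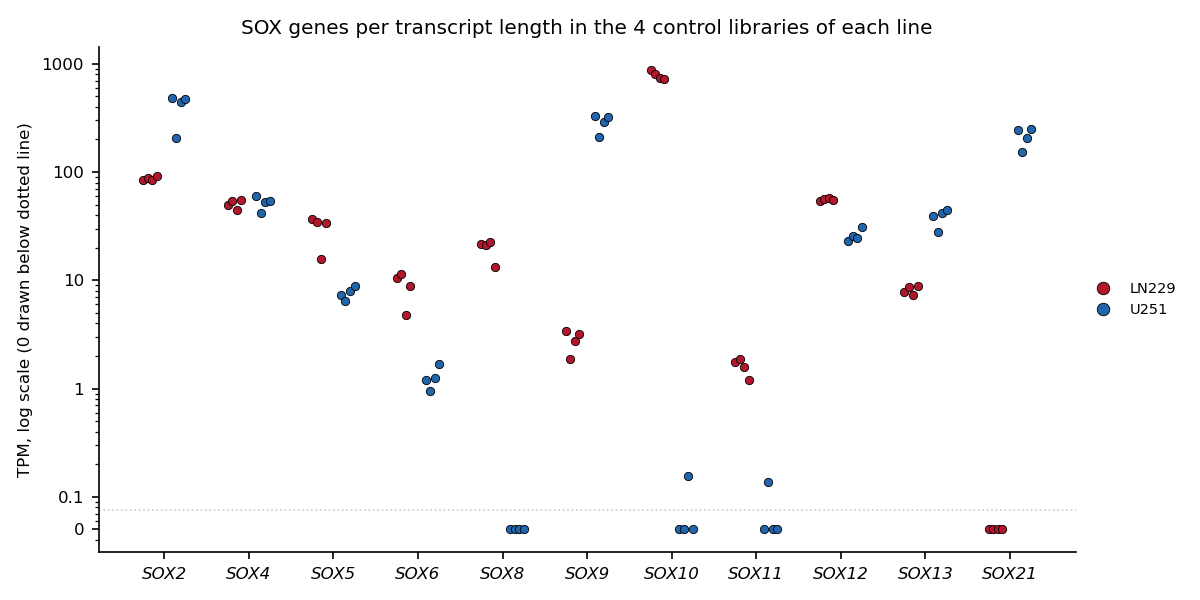
Deposited TPM (log scale; 0 is drawn below the dotted line) of the 10 SOX genes and SOX21 in the 4 control libraries of each line, mock and control siRNA together, LN229 in red left of U251 in blue. SOX10 stands at 728 to 877 TPM in LN229, and SOX2, SOX9 and SOX21 are the 3 highest in U251.

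The other 9 SOX genes in the tables (SOX1, SOX3, SOX7, SOX14, SOX15, SOX17, SOX18, SOX21 and SOX30) added little beyond SOX21 and SOX3. SOX1, SOX14 and SOX17 had no read in any library, and SOX15, at 4 to 20 reads a library, was the only other one tested (log2 fold change in LN229 over U251 0.35, edgeR adjusted p = 0.431). RNAs of the SOX loci were on the side of their neighbours. SOX2-OT, the long RNA around SOX2, was at 9.60 to 14.7 CPM in LN229 controls and 95.7 to 227 CPM in U251 controls. Its log2 fold change was −3.86. SOX21-AS1 and SOX9-AS1 were lower in LN229 too. Both passed the filter through U251 alone, so their side was all but fixed in advance.

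Many SOX exon reads were not listed as unique in the tables, which do not define the term. For SOX2, 0 of 1838 exon reads in LN229 and 2 of 10544 in U251 were unique, and all exon bases of SOX2 lie inside the body of SOX2-OT in GENCODE release 29. SOX12, inside the antisense gene NRSN2-AS1, had 0 unique reads of 2464 in LN229. SOX9, inside SOX9-AS1, had 9.32% unique in U251. SOX10, inside POLR2F, had 14.0% unique in LN229, and 3972 of its 3978 unique reads spanned 2 exons. SOX5, SOX8 and SOX13 were 100% unique, SOX6 99.9%, SOX4 71.2% and SOX11 47.1% in LN229.

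**Figure D3:**
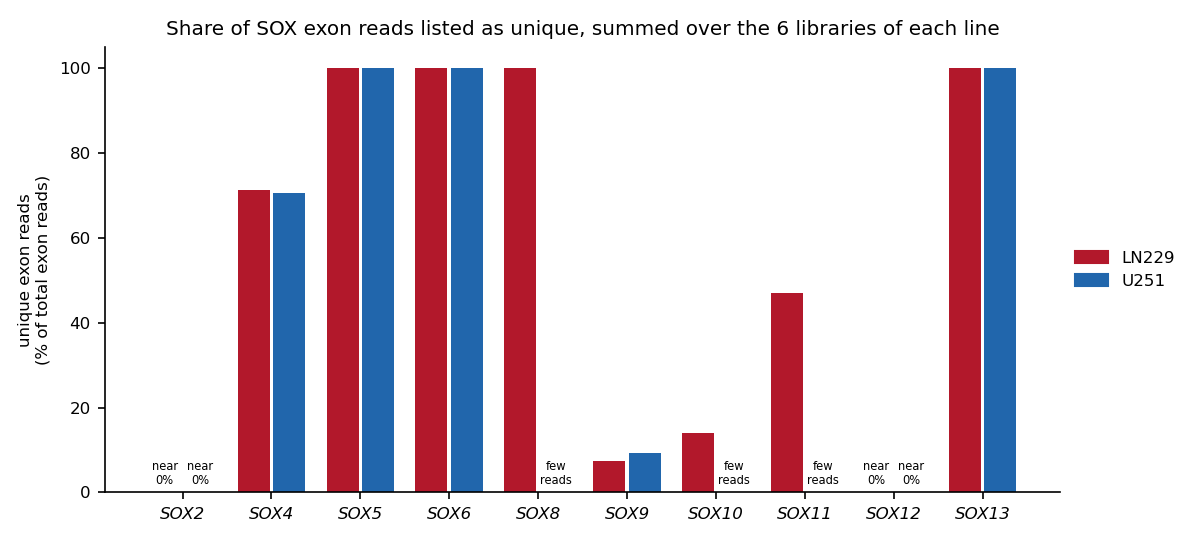
Exon reads listed as unique, as a percentage of all exon reads of each SOX gene, summed over the 6 libraries of LN229 (red) and of U251 (blue). SOX5, SOX6, SOX8 and SOX13 are at or near 100%, SOX2 and SOX12 at or near 0, and genes with under 50 reads in a line are marked as having few reads.

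The kit keeps no strand, so exon reads of SOX9, SOX12 and SOX10 cannot be told from intron reads of the overlapping genes at the same bases. The same holds for SOX2, since SOX2-OT lies on the same strand. Over the 6 libraries of each line SOX2-OT had 139 intron reads in LN229 and 3352 in U251. Annotated exons of other genes cover 0.0% of the exon bases of SOX2, SOX9 and SOX12 and 2.4% of those of SOX10. With unique exon reads alone, 7 of the members passed between the lines, 5 higher and 2 lower in LN229; SOX2 and SOX12 had too few unique reads to be tested. SOX10 had 6482 intron reads in the 6 LN229 libraries, none of them unique, and 0 intron reads in U251. Intron reads of SOX5 in mock were 12.6 ± 0.633 RPM (reads-per-million of gene reads) in LN229 and 2.87 ± 0.131 RPM in U251 (SD, n = 2), the same side as its exon reads.

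Genes that SOX10 is known to activate lay on both sides. Of 13 tested genes of an oligodendroglial and neural crest list, 7 passed as higher in LN229 and 4 as lower, beside 34.9% higher and 32.1% lower of all tested genes, with a median log2 fold change of 0.49 beside 0.03. Of these, 4 (ERBB3 and CSPG4 among them) passed the filter through LN229 alone and 1 through U251 alone. For these genes the side was all but fixed in advance. Of the 8 that reached the filter in both lines, 3 passed as higher and 3 as lower in LN229. ERBB3, the neuregulin receptor, was at 477 ± 70.4 CPM in LN229 controls and 0.520 ± 0.162 CPM in U251 controls (SD, n = 4). CSPG4, the NG2 proteoglycan of oligodendrocyte precursors, was at 400 ± 60.1 CPM in LN229 controls and 1.35 ± 0.364 CPM in U251 controls. PDGFRA, the growth factor receptor of the same precursors, was on the other side, at 14.3 ± 2.68 CPM in LN229 controls and 431 ± 98.2 CPM in U251 controls, with a log2 fold change of −4.90 (SE 0.19, edgeR adjusted p = 1.70e-10). MBP, a myelin protein of mature oligodendrocytes, was lower in LN229 too, with a log2 fold change of −3.53.

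The tested cartilage genes that SOX9 is known to activate were on the side where SOX9 was low. Of 7 tested genes of that list all passed as higher in LN229, beside 34.9% of all tested genes. ACAN and a pair of others passed the filter through LN229 alone, so their side was all but fixed in advance. That leaves 4 of 4 (COL9A2, COL9A3, COL11A1 and COL11A2) beside 32.1% of the genes that reached the filter in both lines. The other 6 of the 13 in the tables were not tested for want of reads. COL9A3, a cartilage collagen chain, was at 479 ± 65.5 CPM in LN229 controls and 13.7 ± 5.24 CPM in U251 controls (SD, n = 4). COL11A2, another such chain, was at 32.5 ± 4.98 CPM in LN229 controls and 1.81 ± 0.777 CPM in U251 controls. COL9A2, a partner chain of COL9A3, was at 27.1 ± 4.34 CPM in LN229 controls and 4.93 ± 0.524 CPM in U251 controls. ACAN, which encodes aggrecan, was at 4.66 ± 0.670 CPM in LN229 controls and at 0 to 0.176 CPM in U251 controls.

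**Figure D4:**
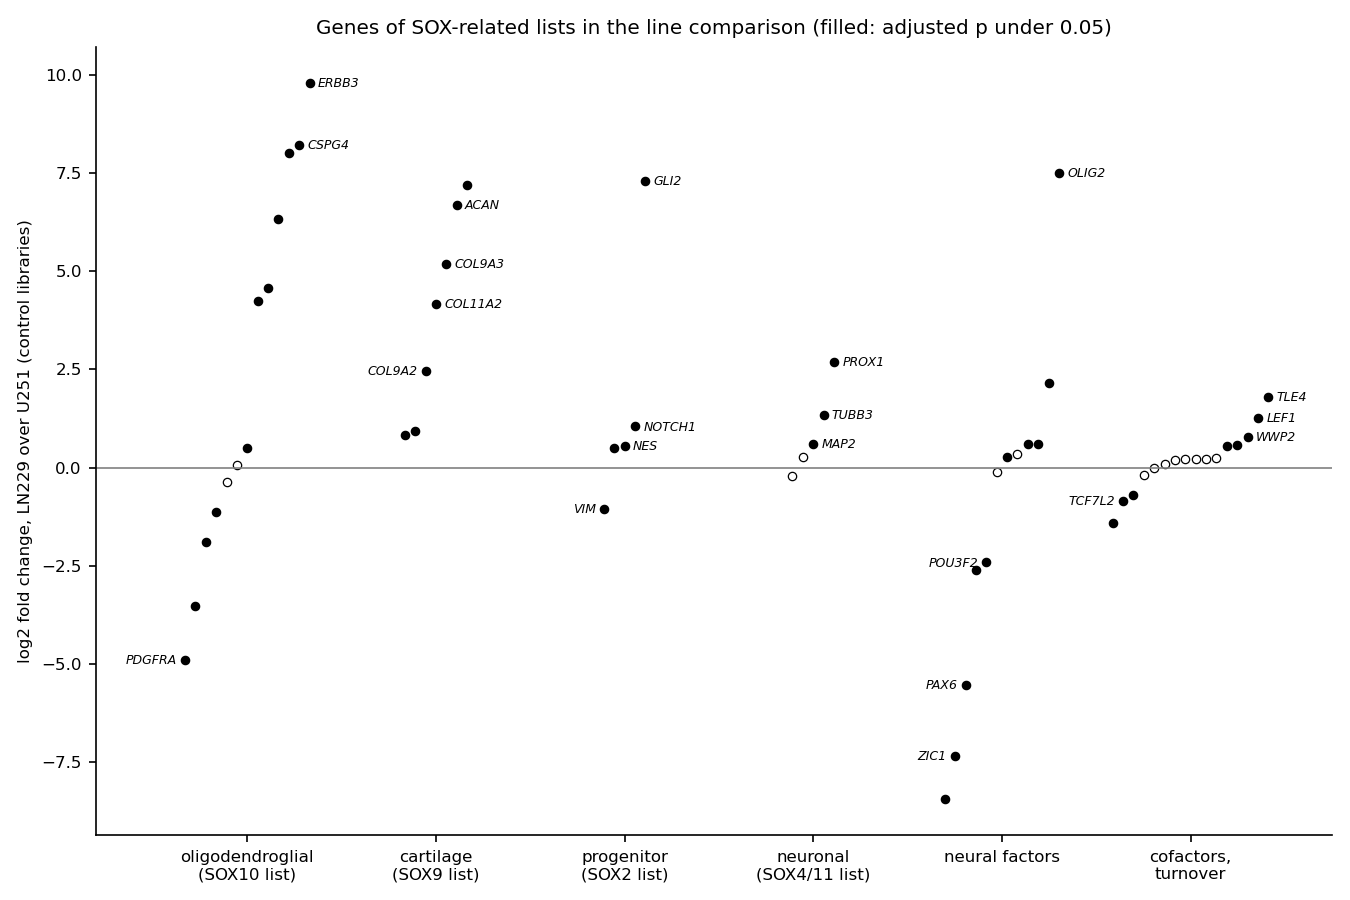
Log2 fold change between the control libraries of LN229 and U251 (vertical axis) of each tested gene in 6 lists, 1 point a gene, filled where the adjusted p was under 0.05; up to 4 passing genes with the smallest p in each list are named. All 7 cartilage points lie above 0, and the oligodendroglial list runs from PDGFRA at −4.90 to ERBB3 at 9.79.

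The progenitor list of SOX2 had 4 of 5 tested genes higher in LN229, where SOX2 was lower, and 1 lower. Of all tested genes 34.9% were higher and 32.1% lower. Of the 4 that reached the filter in both lines 3 were higher and 1 lower, beside 32.1% higher and 32.1% lower of all such genes. GLI2, a Hedgehog effector that passed the filter through LN229 alone, was at 36.3 ± 4.66 CPM in LN229 controls and 0.224 ± 0.178 CPM in U251 controls. NES, the stem-cell filament nestin, was at 768 ± 24.1 CPM in LN229 controls and 531 ± 131 CPM in U251 controls (log2 fold change 0.54, edgeR adjusted p = 0.00587; 0.38 with adjusted p = 0.142 in control siRNA libraries alone). VIM, another filament gene, was lower in LN229, with a log2 fold change of −1.05.

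Neural factors that pair with SOX proteins were split 5 higher and 5 lower in LN229 of 12 tested, and 3 higher and 2 lower of the 7 that reached the filter in both lines. OLIG2, a partner of SOX10, was at 8.48 ± 1.39 CPM in LN229 controls and at 0 to 0.161 CPM in U251 controls. OLIG2 passed the filter through LN229 alone. POU3F2, a partner of SOX2, was at 25.6 ± 3.65 CPM in LN229 controls and 137 ± 30.2 CPM in U251 controls. PAX6 and ZIC1 had log2 fold changes of −5.52 and −7.33. Both passed the filter through U251 alone, so their side was all but fixed in advance. With settings other than leaving 1 library out, ZIC1 ran from −9.08 to −5.58. Of the C-group list, 3 of 5 tested genes were higher in LN229, TUBB3 by 1.33, PROX1 by 2.68 and MAP2 by 0.60 on the log2 scale, and of 16 cofactors and turnover genes 5 were higher and 3 lower, with TLE4 at 1.81, LEF1 at 1.26, TCF7L2 at −0.85 and WWP2, a ubiquitin ligase, at 0.78. The tested C-group and cofactor genes all reached the filter in both lines, where 32.1% of genes passed as higher and 32.1% as lower.

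With XRN2 siRNA in LN229, SOX6 was the only member that passed against control siRNA, where 3.16% of tested genes passed, 1.21% as higher and 1.95% as lower. SOX6 was at 63.4 and 65.2 CPM with XRN2 siRNA, 26.0 and 41.8 CPM with control siRNA and 48.8 and 53.2 CPM in mock. Both XRN2 siRNA values lay above all 4 controls, as did those of 16% of tested genes in LN229. The log2 fold change was 0.92 against control siRNA (SE 0.20, edgeR adjusted p = 0.0337) and 0.33 against mock (SE 0.20, adjusted p = 0.446). The call against control siRNA was lost without control siRNA replicate 1 (0.65, adjusted p = 0.113), without XRN2 siRNA replicate 1 (0.93, adjusted p = 0.0564), without XRN2 siRNA replicate 2 (0.90, adjusted p = 0.306) and in a fit of the LN229 libraries alone (0.94, adjusted p = 0.115). It was 0.65 (adjusted p = 0.0376) without both libraries that stood apart. The difference of the SOX6 response between the lines was 0.46 (SE 0.34, adjusted p = 0.779).

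SOX5 shared the pattern of the low control library. It was at 82.9 and 78.2 CPM with XRN2 siRNA, 39.1 and 71.7 CPM with control siRNA and 77.4 and 72.8 CPM in mock in LN229. Its log2 fold change against control siRNA was 0.53 (95% interval 0.01 to 1.05, edgeR adjusted p = 0.164), and 0.20 without the libraries that stood apart. It passed at 1.04 (adjusted p = 0.00127) when control siRNA replicate 2 was left out. Intron reads of SOX6 in LN229 were 13.7 and 18.8 RPM with XRN2 siRNA, 3.12 and 9.01 RPM with control siRNA and 12.6 and 12.5 RPM in mock. Introns took 5.58% of gene reads in LN229 control siRNA replicate 1 and 7.60% to 9.55% in the other libraries; the part of this in the SOX5 and SOX6 values was not tested.

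SOX8 was lower with XRN2 siRNA than in every LN229 control, as were 16.9% of tested genes, without passing the test. It was at 11.4 and 8.77 CPM with XRN2 siRNA, 28.04 and 14.1 CPM with control siRNA and 23.0 and 22.6 CPM in mock. The log2 fold change of SOX8 was −1.04 against control siRNA (SE 0.32, edgeR adjusted p = 0.0967) and −1.17 against mock (SE 0.31, adjusted p = 0.0994), where 1.29% of tested genes passed (0.738% as lower) and none of the 10 members did. Against mock it passed without the libraries that stood apart (−1.14, adjusted p = 0.00713). Against control siRNA it was then −0.44 (adjusted p = 0.334).

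SOX2 was also lower in LN229 with XRN2 siRNA, without passing, at 37.6 and 36.1 CPM with XRN2 siRNA, 58.9 and 55.2 CPM with control siRNA and 50.6 and 53.2 CPM in mock. Both XRN2 siRNA values lay below all 4 controls, as did those of 16.9% of tested genes. The log2 fold change of SOX2 was −0.63 against control siRNA (95% interval −1.36 to 0.11, edgeR adjusted p = 0.241) and −0.49 against mock (adjusted p = 0.46). The scatter of SOX2 in the shared fit includes the 336 and 141 CPM of the U251 mock pair. In a fit of the LN229 libraries alone no member passed in either comparison. Leaving out the libraries that stood apart was chosen after seeing the data and leaves 1 LN229 control siRNA library. The log2 fold changes of SOX2 were then −0.55 against control siRNA and −0.47 against mock. The difference of its response between the lines was −0.67 (SE 0.41, adjusted p = 0.766), and −0.58 (adjusted p = 0.199) without those libraries. SOX2-OT was at 8.55 and 7.19 CPM with XRN2 siRNA, 11.9 and 14.7 CPM with control siRNA and 9.60 and 11.4 CPM in mock in LN229, and no gene of the SOX locus list passed in any XRN2 siRNA comparison.

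The low members of LN229 had wide intervals. SOX11 had 12 and 2 reads with XRN2 siRNA, 19 and 15 with control siRNA and 23 and 31 in mock, and its log2 fold change was −1.57 against control siRNA (95% interval −3.06 to −0.08, edgeR adjusted p = 0.159) and −1.85 against mock (adjusted p = 0.138). SOX9 had 29 and 39 reads with XRN2 siRNA, 15 and 18 with control siRNA and 20 and 14 in mock, with log2 fold changes of 0.80 (95% interval −0.18 to 1.77) and 1.11 (95% interval 0.15 to 2.08, adjusted p = 0.178). The XRN2 siRNA libraries lay below all 4 controls in CPM for SOX11, as did those of 16.9% of tested genes. For SOX9 they lay above all 4, as did those of 16% of tested genes.

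SOX10 and SOX12 overlapped with control siRNA. SOX10 was at 748 and 836 CPM with XRN2 siRNA, 759 and 648 CPM with control siRNA and 774 and 710.5 CPM in mock, with log2 fold changes of 0.17 (95% interval −0.20 to 0.54) and 0.09 (−0.28 to 0.46). SOX12 was at 58.3 and 77.0 CPM with XRN2 siRNA, against 74.0 and 61.5 CPM with control siRNA, with a 95% interval of −0.41 to 0.40. SOX4 was at 80.2 and 93.5 CPM with XRN2 siRNA, 72.4 and 77.6 CPM with control siRNA and 69.4 and 76.3 CPM in mock. Its XRN2 siRNA values lay just above all controls, as did those of 16% of tested genes. The log2 fold changes of SOX4, 0.21 (SE 0.17) and 0.25 (SE 0.17), did not pass. SOX13 was at 13.2 and 14.90 CPM with XRN2 siRNA, 14.93 and 15.8 CPM with control siRNA and 13.8 and 15.4 CPM in mock, with log2 fold changes of −0.14 (SE 0.20) and −0.06 (SE 0.20).

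**Figure D5:**
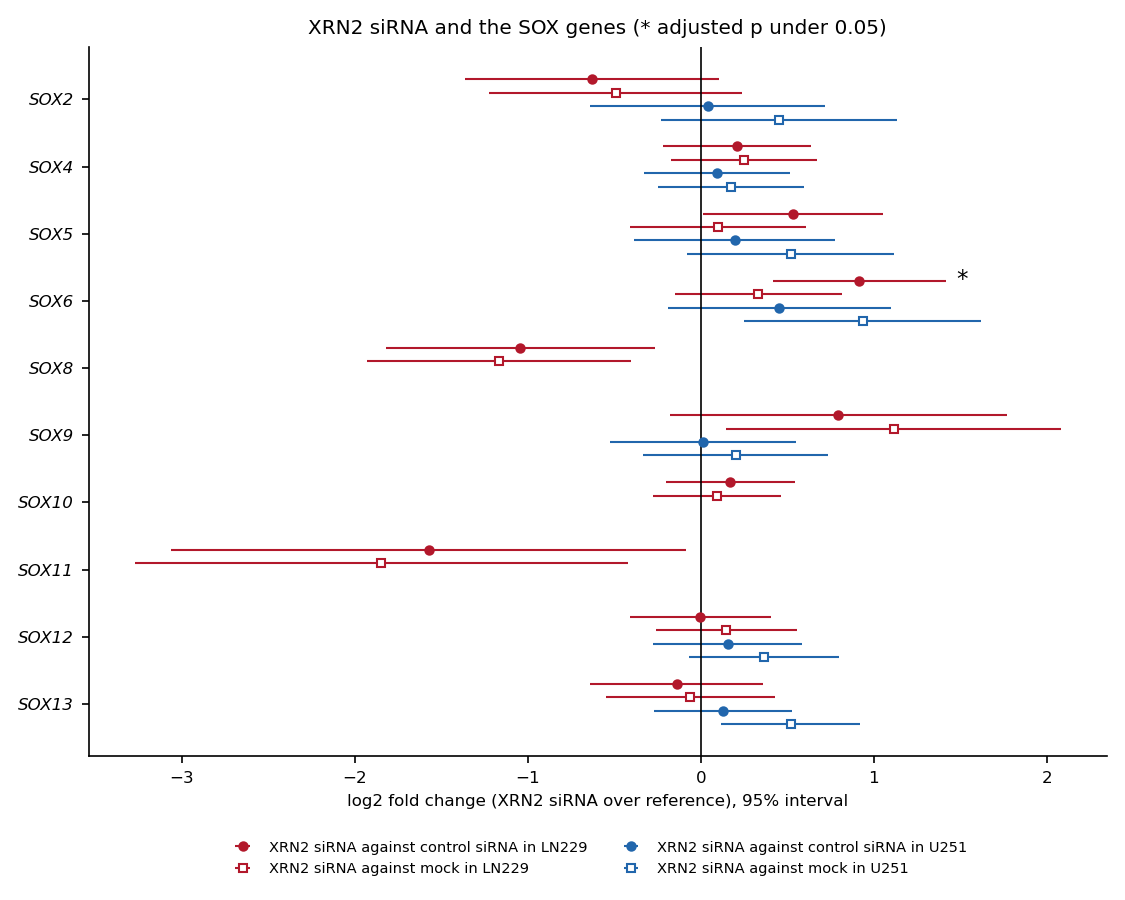
Log2 fold change of each SOX gene with XRN2 siRNA over control siRNA (filled circles) or over mock (open squares), with 95% intervals, in LN229 (red) and U251 (blue); an asterisk marks an adjusted p under 0.05, and genes with hardly any read in U251 have no U251 point. SOX6 against control siRNA in LN229, at 0.92, carries the only asterisk.

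In U251 no member passed in either comparison. Against control siRNA, 0.00703% of tested genes passed, XRN2 alone, which was lower. At an unadjusted p under 0.05 there were 553, and DESeq2 called 9 genes. Against mock 0.0492% passed, 0.0422% as higher, and the 2 comparisons share the XRN2 siRNA libraries. SOX6 was at 10.3 and 11.6 CPM with XRN2 siRNA, 6.69 and 9.34 CPM with control siRNA and 6.50 and 5.00 CPM in mock in U251, above all 4 controls as in LN229. Its log2 fold change was 0.45 against control siRNA (95% interval −0.19 to 1.10) and 0.93 against mock (SE 0.28, edgeR adjusted p = 0.353). SOX5, at 23.3 and 24.3 CPM with XRN2 siRNA, 19.4 and 22.2 CPM with control siRNA and 18.0 and 15.3 CPM in mock, had log2 fold changes of 0.20 (95% interval −0.39 to 0.78) and 0.52 (adjusted p = 0.471). SOX13, at 94.4 and 100.3 CPM with XRN2 siRNA, 84.7 and 93.4 CPM with control siRNA and 80.6 and 55.5 CPM in mock, had 0.13 (95% interval −0.27 to 0.53) and 0.52 (adjusted p = 0.368). Both XRN2 siRNA values of SOX5, SOX6 and SOX13 lay above all 4 controls in U251, as did those of 13.8% of tested genes. Without U251 mock replicate 2 the values against mock were 0.40 for SOX5, 0.75 for SOX6 and 0.27 for SOX13.

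SOX2 and SOX9 did not separate from control siRNA in U251. SOX2 was at 316 and 337 CPM with XRN2 siRNA against 302 and 333 CPM with control siRNA, a log2 fold change of 0.04 (95% interval −0.64 to 0.72). SOX9 was at 335 and 329.9 CPM with XRN2 siRNA against 309 and 351 CPM with control siRNA, 0.01 (95% interval −0.52 to 0.55). Against mock SOX2 had 0.45, SOX9 0.20 and SOX4 0.17; without U251 mock replicate 2 these turned to −0.05, −0.10 and −0.09. SOX4 was at 90.8 and 93.4 CPM with XRN2 siRNA against 84.1 and 88.8 CPM with control siRNA, 0.09 (95% interval −0.33 to 0.51). SOX12 was at 40.3 and 38.8 CPM with XRN2 siRNA against 31.2 and 40.0 CPM with control siRNA, 0.15 (95% interval −0.27 to 0.58). SOX8 stayed at 0 reads, and SOX10 and SOX11 had at most 2 reads in any U251 library.

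The difference of the XRN2 response between the lines passed for none of the 10 members and for 0% of tested genes (edgeR; there were 945 at an unadjusted p under 0.05 and 15 calls in DESeq2). An SOX6 call in LN229 and none in U251 therefore does not show that the lines differ. By library, both XRN2 siRNA values lay above both control siRNA values for 4 members in LN229 (SOX4, SOX5, SOX6 and SOX9) and for 5 in U251 (SOX4, SOX5, SOX6, SOX11 and SOX13), and below them for 4 in LN229 (SOX2, SOX8, SOX11 and SOX13) and none in U251. Such separation was frequent among all tested genes, above for 23.3% in LN229 and 23.5% in U251 and below for 23.6% in LN229 and 21.9% in U251. SOX11 in U251 rests on 2 reads and 1 read with XRN2 siRNA and none with control siRNA.

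Few genes of the SOX-related lists passed with XRN2 siRNA, and all were in LN229. COL11A1, a fibrillar collagen chain, was at 2209 and 2173 CPM with XRN2 siRNA, 933 and 1240 CPM with control siRNA and 1101 and 1349 CPM in mock, with log2 fold changes of 1.01 (edgeR adjusted p = 0.0132) and 0.84 (adjusted p = 0.0293). MITF, the melanocyte regulator downstream of SOX10, was at 50.7 and 54.5 CPM with XRN2 siRNA against 27.8 and 35.2 CPM with control siRNA, 0.73 (adjusted p = 0.0463), and 0.61 (adjusted p = 0.172) without control siRNA replicate 1. MITF was lost without XRN2 siRNA replicate 1 as well (adjusted p = 0.0640). MBP passed at 1.81 (adjusted p = 0.0325), but of its 24 and 23 exon reads with XRN2 siRNA only 3 and 6 were unique, against 5 and 3 unique of 7 and 4 with control siRNA, and on unique reads the value was −0.10. The MBP call was lost without control siRNA replicate 1 (adjusted p = 0.0636) or replicate 2 (adjusted p = 0.0552). Leaving out XRN2 siRNA replicate 2, or fitting LN229 alone, ended all 3 of these calls against control siRNA. Against mock the COL11A1 call was lost without mock replicate 1, mock replicate 2 or XRN2 siRNA replicate 2, with adjusted p of 0.141 to 0.345.

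Of the oligodendroglial list, 3 of 13 tested genes passed as higher against control siRNA and 1 against mock, and of the cartilage list 1 of 7 in each, while SOX10 and SOX9 did not pass. Of all tested genes 1.21% passed as higher against control siRNA and 0.548% against mock. The progenitor list, the neural factors, the C-group list and the cofactors had none of 5, 12, 5 and 16 tested genes passing in LN229, and no list gene passed in U251. Without both libraries that stood apart, 3 oligodendroglial genes passed as higher and 2 as lower in LN229 against mock, and 4 cartilage genes passed as higher against mock and 2 against control siRNA. Of the progenitor list 2 then passed as lower against mock and 1 against control siRNA, and of the C-group list and the cofactors 1 each passed as lower in both comparisons, with 1 neural factor lower against mock. In that setting 5.22% of tested genes passed as higher and 5.6% as lower against mock, and 1.67% as higher and 2.06% as lower against control siRNA. In LN229 the 8 astroglial markers summed to 3181 to 4081 CPM with XRN2 siRNA, 4864 to 6200 CPM with control siRNA and 4771 to 4893 CPM in mock. Of the oligodendrocyte markers beside MBP, MOG was at 4.21 to 5.29 CPM with XRN2 siRNA, 2.36 to 2.42 CPM with control siRNA and 1.76 to 3.05 CPM in mock, and MAG at 2.81 to 5.97 CPM with XRN2 siRNA, 6.23 to 9.08 CPM in the 4 controls. The part of such shifts in the SOX values and in the list calls was not tested.

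The genes most like each member across the 12 libraries were found by Pearson's r of log2(CPM + 1), after each line's own mean was subtracted, among genes averaging at least 10 CPM. All share libraries and depth, so r is a description. The 12 libraries include those that stood apart, and r was not computed without them. SOX8, SOX10 and SOX11 had at most 2 reads in any U251 library, so in U251 their r rests on hardly any reads. The genes most like SOX5 were HSPG2 (r = 0.98), which encodes perlecan, LRP1 and SLC35E2B. For SOX6 they included COL27A1 (r = 0.95) and CYB5RL. For SOX2 they were the glycolytic regulator PFKFB4 (r = 0.97), the lactate exporter SLC16A3 and FSCN1, and for SOX10 PSEN2 (r = 0.90), ZNF266 and CHKB. The highest r was 0.94 for SOX4 (APOL1), SOX8 (TMED1) and SOX9 (MOV10), 0.95 for SOX11 (SNX12) and SOX13 (WBSCR17) and 0.93 for SOX12 (CTSD).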

How the data were processed

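Per the labels' protocols, the RNA-seq libraries come from an Illumina TruSeq kit (RNA LT v2), which selects poly(A) RNA and records no strand. Read counts of exons, introns and exon-exon junctions per gene are whole numbers deposited by the authors, per the file headers, and TPM and RPKM stand beside them in the authors' tables. RPKM was not analysed. GRCh37 and hg19 are the builds in the submitters' processing notes, but 96.8% of the gene identifiers shared with GENCODE release 29 have its GRCh38 position. Neither the counting program nor its handling of shared reads is given in the sources used here. In 95.0% of values TPM was proportional to exon reads per length (relative tolerance 0.001).

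Total exon reads were tested in edgeR 4.0.16 (filterByExpr, minimum count 10 and total 15, 14232 genes kept; TMM scaling; 1 mean per group over all 12 libraries; robust quasi-likelihood F-test, two-sided, Benjamini-Hochberg adjustment over all tested genes at 0.05). The contrasts were LN229 minus U251 over mock and control siRNA, XRN2 siRNA against control siRNA and against mock in each line, and the difference between the lines. The method was tested on simulated data. Ratios of summed reads have exact 95% counting intervals. The 10 members and the gene lists were chosen with earlier results of these data known. Named genes are the members, XRN2, up to 4 passing genes of each list with the smallest p, and the 3 genes most like each member; 2 genes that this rule names are not reported here. Alternatives were DESeq2 1.42.0, other scalings and filters, unique reads, a replicate block, other sets of control libraries, fits on 1 line and each library left out; leaving out LN229 control siRNA replicate 1 and U251 mock replicate 2 together was chosen after seeing the data.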

Additional observations from a re-analysis of the deposited data

Results flagged for a closer look

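SOX5 was at 39.1 CPM in LN229 control siRNA replicate 1, far below the 71.7 to 77.4 CPM of the other 3 control libraries of that line. SOX9 was at 1.78 CPM in LN229 mock replicate 2, below the 3.03 to 3.20 CPM of the other 3, with 14 reads behind it. Such gaps were looked for in 17 sets of 4 control libraries, and chance gives about 1 in 20. SOX13 was lower in both XRN2 siRNA libraries than in both control siRNA libraries of LN229 and higher in both in U251; the difference of the responses was −0.27 on the log2 scale (SE 0.26) and did not pass edgeR's test of it (adjusted p = 0.823).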

How the results depend on the processing

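Between the lines the number of passing genes was 7759 to 10307 and that of passing SOX genes 7 to 10 over 18 alternatives, all within 1.5 times of the values given. With XRN2 siRNA the counts moved more. LN229 against control siRNA went to 773 genes in DESeq2, 1550 with no filter, 817 with mock and control siRNA together and 1 in LN229 alone; the passing SOX genes were then 1, 3 (SOX2, SOX6 and SOX8), 2 and 0. LN229 against mock went to 412 in DESeq2, 1026 with no filter (3 SOX genes, SOX8, SOX9 and SOX11) and 1 in LN229 alone. U251 against control siRNA went to 9 in DESeq2, 69 with no filter, 4 on unique reads, 7 in U251 alone and 10 with both controls. U251 against mock went to 34 in DESeq2 and 502 with no filter (1 SOX gene, SOX6), and the difference between the lines to 15 and 144. Without both libraries that stood apart, a setting chosen after seeing the data, the passing SOX genes were 2 in LN229 against control siRNA (SOX2 and SOX6) and 2 against mock (SOX2 and SOX8), among 543 and 1577 genes, and U251 against control siRNA had 22 genes. For most of these settings the share of all tested genes that passed was not computed, so the SOX counts have no background beside them. The cause of these moves was not tested.

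Leaving out 1 library each gave 1 to 3296 genes and 0 to 3 SOX genes in LN229 against control siRNA, 1 to 657 genes in LN229 against mock, 1 to 768 genes and 0 to 2 SOX genes in U251 against mock, and 0 to 1115 genes and 0 to 1 SOX genes for the difference between the lines. A group left with 1 library was assumed to vary like the others. The share of all tested genes that passed was not computed for these fits, so their SOX counts have no background either. U251 against mock reached 768 genes without mock replicate 1, when SOX2 and SOX13 passed, and the difference between the lines reached 1115 without LN229 control siRNA replicate 2, when SOX5 passed.

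Values near 0 changed sign. SOX12 in LN229 against control siRNA was 0.018 in DESeq2 and with its size factors, 0.016 with a 5 CPM filter, 0.017 in LN229 alone, 0.095 with library sizes only, 0.072 with both controls, 0.16 without the 2 libraries and −0.21 to 0.18 with 1 library left out. SOX12 with 1 library left out was −0.062 to 0.33 against mock in LN229, −0.016 to 0.34 against control siRNA in U251 and −0.37 to 0.026 for the difference between the lines, which was 0.011 without the 2. SOX13 against mock in LN229 was 0.0024 with library sizes only and −0.15 to 0.023 with 1 library left out. In U251 against mock SOX2, SOX4 and SOX9 were −0.053, −0.098 and −0.11 without the 2 libraries; with 1 left out they were −0.045 to 1.21, −0.090 to 0.49 and −0.10 to 0.57. In U251 against control siRNA SOX9 was −0.034 on unique reads and −0.077 to 0.10 with 1 library left out, and SOX2 −0.029 to 0.11. On unique reads the line difference of the SOX4 response was −0.083 and MBP in LN229 against control siRNA was −0.10.

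Replicate numbers are shared by all groups, with only 2 numbers and correlations of −0.07 to 0.10 between same-numbered libraries, so they were not taken as pairs. With a replicate block LN229 against control siRNA had 566 passing genes, LN229 against mock 231 and U251 against mock 5, and SOX6 remained the only passing member (0.94 on the log2 scale). With 4846768 to 7469052 exon reads a library, members below about 4 CPM rest on few reads and their responses have wide intervals.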
